A study of Mus musculus with 6 samples.

Results

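A set of 9 genes that write, erase or read cytosine methylation on DNA was followed in RNA from adult mouse left ventricles. They were picked by symbol (Dnmt1, Dnmt3a, Dnmt3b, Uhrf1, Tet1, Tet2, Tet3, Tdg and Mbd2), and all 9 were found among the 43629 Ensembl genes counted. Pregnant CD-1 mice, an outbred strain, received daily i.p. injections of normal saline (vehicle) or of 20 mg/kg caffeine, an adenosine receptor antagonist, from embryonic day (E) 6.5 to 9.5. One label field ends the exposure at E10.5. The left ventricles of male offspring were taken at 1 year of age, with 3 vehicle-treated and 3 caffeine-treated hearts, so that every RNA sample came from an adult whose own exposure had ended before birth. The labels do not give the dam of each heart, so p-values measure the spread between these samples, which may include litter mates.

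DNA methylation in mammals sits mostly on CpG dinucleotides. DNMT3A and DNMT3B place it on unmethylated DNA, and DNMT1, brought to newly replicated DNA by UHRF1, copies it to the daughter strand. TET1, TET2 and TET3 oxidise 5-methylcytosine, and the glycosylase TDG cuts out the later oxidation products so that base excision repair can restore cytosine. MBD2 binds methylated CpG and carries the NuRD chromatin remodelling and deacetylase complex. Cardiomyocytes of the adult ventricle have largely left the cell cycle, while fibroblasts, endothelial cells and leukocytes of the same tissue can still divide. The study asked whether caffeine given during the remethylation of the embryonic genome has lasting effects on the heart, and the comparison here is of the RNA of the methylation machinery itself. In whole tissue, fewer cells of a type and less RNA per cell cannot be told apart.

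The DNA before the starts of these genes carries the dinucleotide that their products act on. Windows of the 250 bases before an annotated start were read from RefSeq (GRCm38.p6) for 8 of the genes, and CG was counted in them. The median over 32851 windows of all genes was 6 CpG, with quartiles of 2 and 16. The first annotated start of each methyltransferase gene is shown because these windows run from few to many CpG, with every CG in capitals, 5′ to 3′ along the gene's own strand. The Dnmt1 window is chr9:20959889-20960138 (minus strand), the Dnmt3a window is chr12:3806730-3806979 (plus strand) and the Dnmt3b window is chr2:153649199-153649448 (plus strand).
Dnmt1: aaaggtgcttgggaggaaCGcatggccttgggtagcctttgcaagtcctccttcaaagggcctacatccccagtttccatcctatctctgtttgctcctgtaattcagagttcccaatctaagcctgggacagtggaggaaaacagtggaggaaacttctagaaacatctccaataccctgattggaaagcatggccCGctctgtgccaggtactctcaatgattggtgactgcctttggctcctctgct
Dnmt3a: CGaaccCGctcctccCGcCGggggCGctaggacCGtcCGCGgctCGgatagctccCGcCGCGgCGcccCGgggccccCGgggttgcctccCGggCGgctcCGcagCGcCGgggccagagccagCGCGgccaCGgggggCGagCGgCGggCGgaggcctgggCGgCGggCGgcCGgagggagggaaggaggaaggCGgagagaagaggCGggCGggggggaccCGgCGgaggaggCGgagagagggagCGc
Dnmt3b: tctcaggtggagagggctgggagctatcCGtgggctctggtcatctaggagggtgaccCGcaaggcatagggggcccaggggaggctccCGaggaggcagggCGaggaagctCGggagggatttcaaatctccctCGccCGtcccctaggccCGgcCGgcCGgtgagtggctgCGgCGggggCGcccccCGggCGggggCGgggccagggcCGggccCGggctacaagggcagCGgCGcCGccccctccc
The Dnmt3a window held 38 CpG, a number reached by 1.88% of all windows. The Dnmt3b window held 21, reached by 16.4%, and the Dnmt1 window held 2, reached by 81.2%. Dnmt1 has other annotated starts 6909 and 7265 bases further into the gene, with 7 and 26 CpG before them. Those of Dnmt3a lie 180 and 84764 bases further in, with 40 and 15 CpG before them, and 27.3% of windows reached 15. Tet2 had the most CpG of the members, 51, which 0.07% of windows reached. Tet1 had 15, Tet3 17 and Tdg 19, while the 2 starts of Uhrf1 had 10 and 30. The RefSeq starts of Tet1 and Tet3 lie well inside the genes as positioned below, downstream of their outer 5′ ends. The windows of Tet1 (chr10:62887325-62887574) and Tet3 (chr6:83441679-83441928) therefore do not show the DNA before those ends. The first Dnmt3a window and the Tet2 window (chr3:133544391-133544640) also lie inside the genes as positioned below, so the same holds for them. A CpG count is a feature of the sequence, and the methylation of these windows was not measured in the RNA data.

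**Figure D1:**
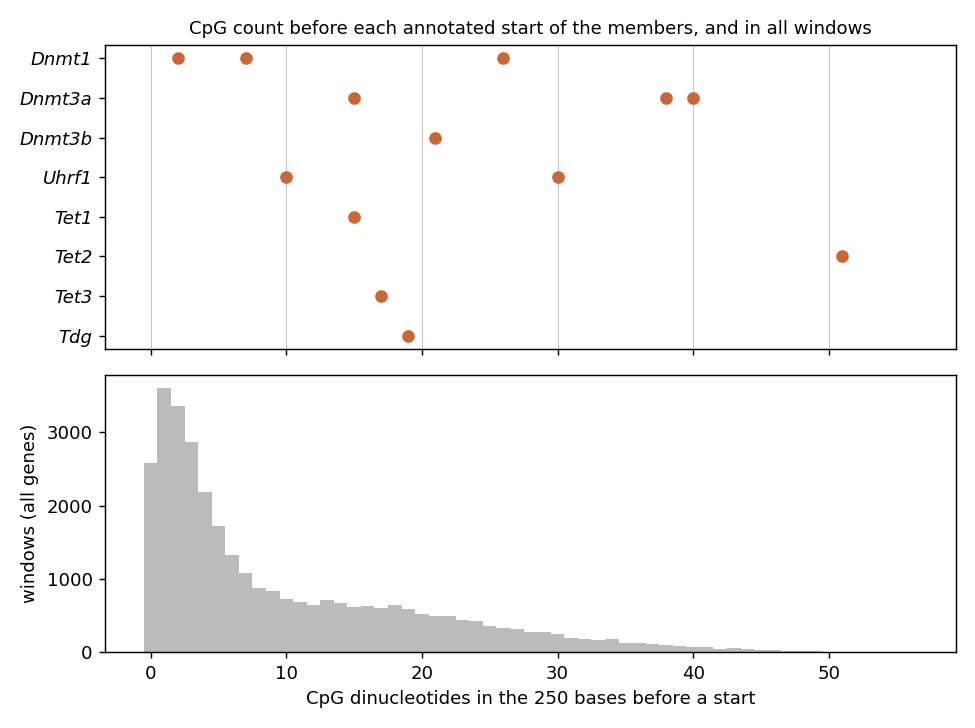
The upper panel gives the number of CpG in the 250 bases before each annotated start of 8 members (1 point a start, same horizontal axis in both panels), and the lower panel the number of windows of all genes at each CpG count. Every member has at least 1 start with more CpG than the median window, which holds 6, and the first start of Dnmt1, with 2, lies below it.

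Total counts ran from 7613011 to 10483101 per heart, and each caffeine-treated total was below each vehicle-treated total. The deposited raw counts were scaled to CPM (counts relative to the effective library size, on the usual CPM scale) with the TMM factors of edgeR, which ran from 0.94 to 1.07. On this scale 3 counts equal 0.283 to 0.419 CPM. A count filter left 13092 genes for edgeR's quasi-likelihood test, and a gene was called changed at a Benjamini-Hochberg adjusted p below 0.05 over all tested genes and a fold change above 1.5. Cardiomyocyte markers summed to 52597 to 61927 CPM in the vehicle-treated and 52260 to 55864 CPM in the caffeine-treated hearts. Of these 8 markers, 7 had negative log2 fold changes and 1 a positive one, with a median of −0.06. All 7 fibroblast markers had positive log2 fold changes, and their sum was higher in every caffeine-treated heart (1099 to 1260 CPM) than in every vehicle-treated heart (852 to 1015 CPM). Markers of macrophages and leukocytes overlapped (134 to 206 CPM in vehicle, 159 to 294 CPM in caffeine), although all 8 had positive log2 fold changes. The groups also overlapped for 18 markers of proliferating cells (39.0 to 43.5 CPM in vehicle, 36.1 to 46.3 CPM in caffeine). Lymphocyte markers summed to 1.07 to 1.62 CPM in vehicle and 2.22 to 3.07 CPM in caffeine, and the atrial and conduction list, led by Nppa, to 72.7 to 205 and 274 to 441 CPM, with 3 of its 4 tested genes negative. No marker of these lists was at 0 in all hearts. The part of these cell types in the differences below was not tested.

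None of the methylation genes was called changed. Of the 9, 7 passed the count filter (Dnmt3b and Tdg did not), and edgeR's quasi-likelihood test called 0 of these 7, beside 0.107% of all tested genes in either direction and 0.0229% lower in caffeine. The exact and likelihood ratio tests of edgeR, DESeq2 and limma-voom also called 0. At an unadjusted p below 0.05 the count was also 0, where 8.82% of all genes passed. Log2 fold changes were negative for 6 of the 7, where 49.8% of all tested genes were negative, with a median of −0.17 beside 0.00088 over all tested genes, and Uhrf1 alone was positive. The hearts of the groups did not overlap for 2 of the 7, Tet1 and Mbd2, both lower in caffeine, where 14.2% of all tested genes did not overlap in either direction and 7.12% were lower in every caffeine-treated heart. With 3 hearts against 3, the two-sided exact permutation test cannot go below p = 0.1, which Tet1 and Mbd2 reached.

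**Figure D2:**
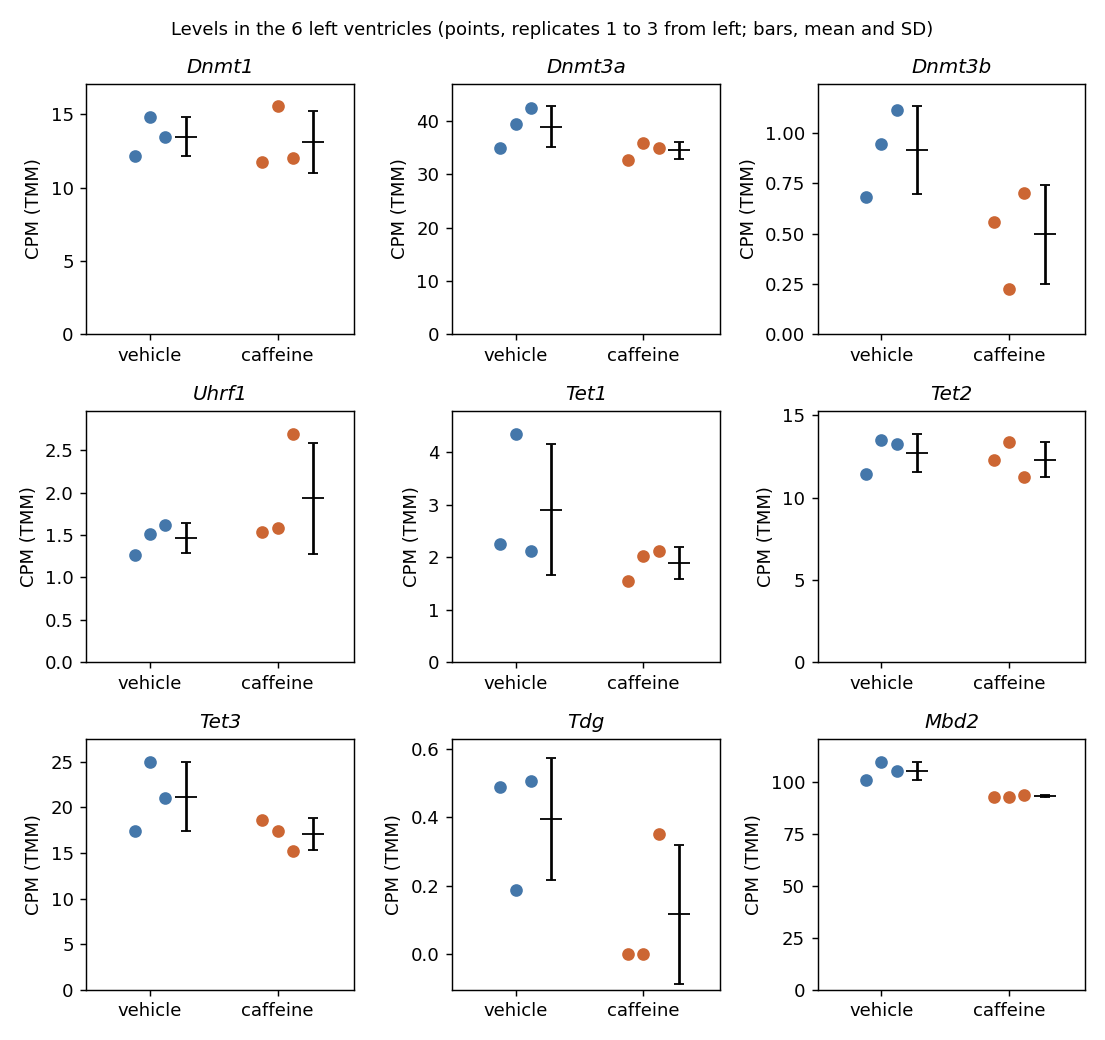
CPM (vertical axis, from 0 except in the Tdg panel, where the SD bar extends below 0) of the 9 genes in the 3 vehicle-treated hearts (blue) and the 3 caffeine-treated hearts (orange), with black bars for mean and SD. The groups are clear of each other for Mbd2 and Tet1, and the single high points are vehicle replicate 2 for Tet1 (4.34 CPM) and caffeine replicate 3 for Uhrf1 (2.69 CPM).

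Among the writers, Dnmt3a had the most counts. The gene (chromosome 12, 3806007 to 3914443, GRCm38 as for all positions here) encodes the de novo methyltransferase that acts in most somatic tissues. Its levels were 34.9, 39.4 and 42.5 CPM in the vehicle-treated hearts and 32.7, 35.8 and 34.998 CPM in the caffeine-treated hearts. The groups overlapped, because caffeine replicates 2 and 3 lay just above vehicle replicate 1. The caffeine mean was 88.7% of the vehicle mean (34.5 ± 1.62 against 38.9 ± 3.8009 CPM, SD, n = 3). The log2 fold change was −0.17 (standard error 0.11, 95% interval −0.41 to 0.06, edgeR adjusted p = 0.695). It was −0.11 without vehicle replicate 3 and −0.26 with library size only.

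Dnmt1 (chromosome 9, 20907209 to 20959888), the maintenance methyltransferase, was at 12.2, 14.8 and 13.4 CPM in vehicle and 11.7, 15.5 and 12.1 CPM in caffeine. Both the lowest and the highest heart were caffeine-treated. Its log2 fold change was −0.04 (standard error 0.15, edgeR adjusted p = 0.973), and the interval of the fold change, 0.771 to 1.23, leaves room for differences of about that size in either direction. Leaving out vehicle replicate 2, caffeine replicate 1 or caffeine replicate 3 turned the sign, to 0.04, 0.03 and 0.02.

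Uhrf1 (chromosome 17, 56303321 to 56323486), the partner of DNMT1 at replicated DNA, was counted 13, 16 and 16 times in the vehicle-treated hearts and 11, 14 and 23 times in the caffeine-treated hearts. As CPM these were 1.27, 1.51 and 1.62 against 1.54, 1.58 and 2.69, so the higher caffeine mean rested on replicate 3. The log2 fold change was 0.41 (standard error 0.33, 95% interval −0.33 to 1.14, edgeR adjusted p = 0.794), and without caffeine replicate 3 it was 0.09. A processed pseudogene, Gm5648, matched 67.7% of the coding bases of Uhrf1 at 95% identity or more, so reads may be split between them. With the pseudogene's own counts added, the hearts had 13, 18 and 20 counts in vehicle and 15, 17 and 27 in caffeine.

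Dnmt3b (chromosome 2, 153649450 to 153687730), the de novo methyltransferase best known from the early embryo, was near the limit of detection. It had 7, 10 and 11 counts in vehicle and 4, 2 and 6 in caffeine, and did not pass the filter. Its CPM were 0.683, 0.945 and 1.11 against 0.559, 0.225 and 0.702, with caffeine replicate 3 just above vehicle replicate 1. The pooled counts were 28 of 29871391 in vehicle and 12 of 25272763 in caffeine, a ratio of 0.507 with an exact 95% interval of 0.235 to 1.03 that covers counting error only. At these low counts no difference was shown, and the interval is wide.

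The 3 TET genes differed in how far their groups stood apart. Tet3 (chromosome 6, 83362373 to 83459084) had the highest TET counts, at 17.5, 25.03 and 21.03 CPM in vehicle and 18.6, 17.5 and 15.2 CPM in caffeine. Vehicle replicate 1 lay within the caffeine range, and the other vehicle-treated hearts lay above it. The caffeine mean was 80.7% of the vehicle mean (log2 fold change −0.31, standard error 0.15, 95% interval −0.65 to 0.03, edgeR adjusted p = 0.606), and without vehicle replicate 2 the log2 fold change was −0.17.

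Tet1 (chromosome 10, 62804570 to 62908996) was lower than the other TET genes, at 23, 46 and 21 counts in vehicle and 11, 18 and 18 in caffeine. On the CPM scale the hearts did not overlap, with 2.24, 4.34 and 2.12 in vehicle above 1.54, 2.03 and 2.11 in caffeine, but the lowest vehicle-treated heart and the highest caffeine-treated heart nearly touched. The log2 fold change of −0.61 (standard error 0.35, 95% interval −1.38 to 0.16, edgeR adjusted p = 0.668) was the largest of the 7 in size. It moved to −0.20 without vehicle replicate 2, the heart with the high value.

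Tet2 (chromosome 3, 133463679 to 133545139) was at 11.4, 13.5 and 13.2 CPM in vehicle and 12.3, 13.4 and 11.2 CPM in caffeine. The ranges covered each other almost fully. Its log2 fold change was −0.05 (standard error 0.14, 95% interval −0.36 to 0.26, edgeR adjusted p = 0.962), and it was 0.02 without caffeine replicate 3.

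Tdg (chromosome 10, 82629828 to 82650799) had only 5, 2 and 5 counts in vehicle and 0, 0 and 3 in caffeine, and did not pass the filter. These counts cannot be read as the level of the gene. All of its coding bases were matched at 95% identity or more by transcripts of 4 other annotated genes, among them the processed pseudogenes Gm5597 (up to 99.3% identity), Gm9855 (99.2%) and Tdg-ps (98.7%), and reads that fit several places can be dropped or split in counting. Gm9855 had 10, 16 and 8 counts in vehicle and 6, 11 and 18 in caffeine. The exons of Tdg also share 6.83% of their bases with Glt8d2 on the opposite strand. Tdg and its counted copies summed to 15, 18 and 14 against 6, 11 and 23, and these sums overlapped between the groups.

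Mbd2 (chromosome 18, 70568189 to 70626131), the methyl-CpG reader of the group, had by far the most counts and the tightest replicates. It was at 101.03, 109.85 and 105.2 CPM in the vehicle-treated hearts and 92.8, 92.95 and 93.99 CPM in the caffeine-treated hearts. Each caffeine-treated heart lay below each vehicle-treated heart, and the coefficient of variation was 4.19% in vehicle and 0.703% in caffeine. The caffeine mean was 88.5% of the vehicle mean (93.2 ± 0.655 against 105.4 ± 4.41 CPM, SD, n = 3). The log2 fold change was −0.18 (standard error 0.08, 95% interval −0.35 to 0.0022), with an unadjusted p of 0.0525 and an adjusted p of 0.578 from edgeR's quasi-likelihood test. By p it ranked 1189 of the 13092 tested genes.

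**Figure D3:**
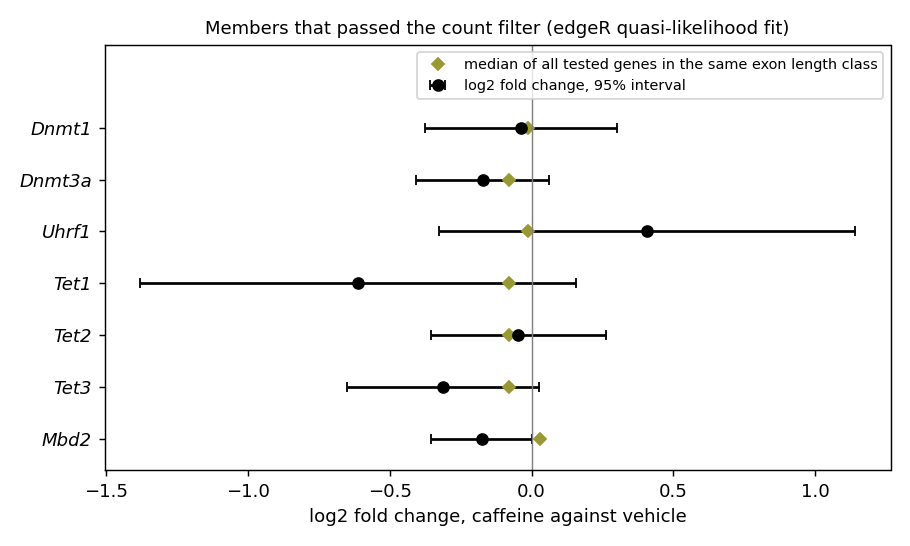
Points give the log2 fold change (caffeine against vehicle, horizontal axis) of the 7 tested genes with 95% intervals from the edgeR quasi-likelihood fit, and diamonds the median log2 fold change of all tested genes in the same exon length class. Every interval includes 0, that of Mbd2 only just (upper end 0.0022).

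Levels of different genes were compared per kilobase of annotated exon. Mbd2 stood first with a mean of 30.9 CPM per kilobase over the 6 hearts, above 89.5% of tested genes, whose median was 4.06. Dnmt3a (2.21) and Dnmt1 (1.80) followed, with ranges that overlapped. Next came Tet3 (1.15), Tet2 (0.742) and Uhrf1 (0.399), whose ranges were clear of each other. Tet1 (0.155) and Dnmt3b (0.138) followed with overlapping ranges. Tdg, counted at 0.0476, was given no place in the order because of its copies. With the length of the transcript that has the longest coding sequence, a choice made after seeing the data, Tet3 (3.22 CPM per kilobase) stood above Dnmt1 (2.48), and the other 6 genes kept their order.

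The make-up of the 2 enzyme families overlapped between the groups except for the share of Tet2. By levels per kilobase of exon, Dnmt3a made up 51.9% to 55.6% of the DNMT sum in vehicle and 50.01% to 54.3% in caffeine, and Dnmt3b between 1.03% and 4.74% in all hearts. Tet3 made up 56.0% to 58.1% of the TET sum in vehicle and 53.0% to 57.3% in caffeine, and Tet1 5.12% to 10.9% in all hearts. Tet2 held 36.2%, 31.0% and 36.0% of the TET sum in vehicle and 37.5%, 40.3% and 38.9% in caffeine. This share was higher in each caffeine-treated heart, although the level of Tet2 overlapped. The caffeine mean CPM was 96.8% of the vehicle mean for Tet2, beside 80.7% for Tet3 and 65.1% for Tet1. The DNMT sum was 2.08, 1.77 and 2.10 times the TET sum in vehicle and 1.89, 2.18 and 2.26 times in caffeine, and overlapped. These shares and ratios rest on exon lengths and were not computed with transcript lengths. With transcript lengths the mean level was 3.22 for Tet3 and 2.48 for Dnmt1, against 1.15 and 1.80 here, so the values would move.

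For each tested gene the 2 genes with the most similar profile over the 6 hearts were taken, by the mean absolute difference in log2 CPM after centring each gene. Tet2 was closest to Safb (0.013) and Sh2b3 (0.017), Mbd2 to Ak4 (0.016) and Zadh2 (0.017), and Dnmt1 to Lats2 (0.021) and Itgb6 (0.025). Dnmt3a was closest to Ctdsp2 (0.024) and Edem3 (0.025), Tet3 to Dhx33 (0.047) and Zbtb34 (0.047), and Uhrf1 to Peg10 (0.052) and Ndfip2 (0.062). Tet1 had the least similar neighbours, Plekha6 and Itga4, with a mean difference of 0.11 for both. The median distance to all genes ran from 0.16 for Mbd2 to 0.34 for Tet1. No methylation gene was among these neighbours, and with 6 hearts the likeness is a description only.

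The wider pathway was taken as 5 lists with 73 genes, of which 62 passed the filter. None was called changed by the quasi-likelihood test of edgeR, by its exact and likelihood ratio tests, by DESeq2 or by limma-voom. At an unadjusted p below 0.05, 7 were lower and 0 were higher in caffeine, where 4.4% and 4.42% of all tested genes were. The hearts did not overlap for 14 genes, all lower in caffeine, and for 0 genes in the other direction, where 7.12% of all tested genes were lower and 7.11% higher in every caffeine-treated heart. The median log2 fold change of the 62 was −0.06. Log2 fold changes were negative for 39 genes and positive for 23.

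**Figure D4:**
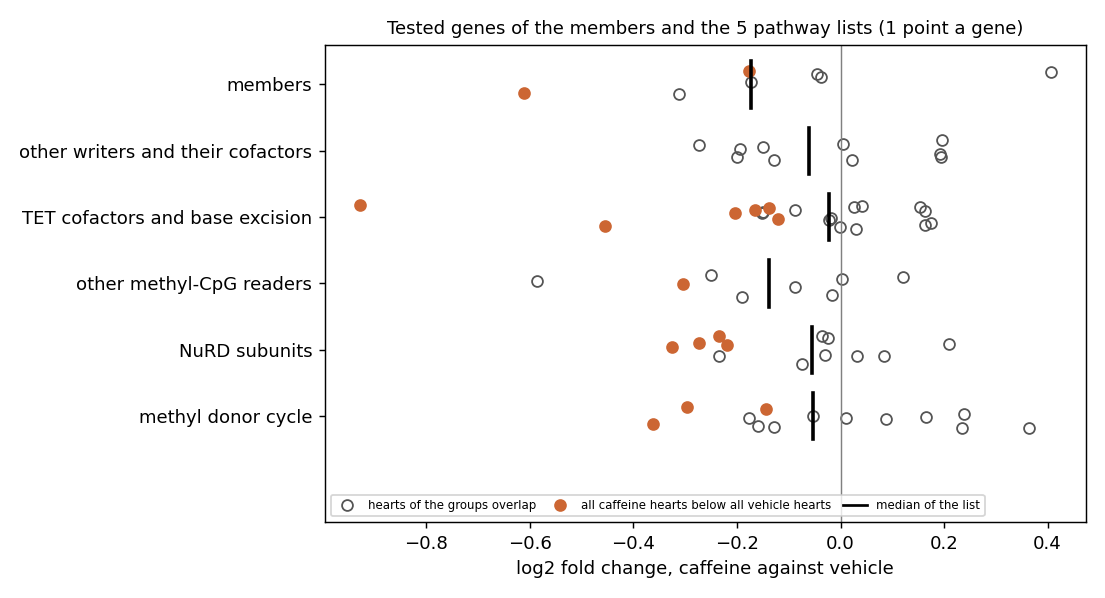
Each point is the log2 fold change (caffeine against vehicle, horizontal axis) of a tested gene of the 9-gene set (members) or of a pathway list, filled where every caffeine-treated heart lay below every vehicle-treated heart, with a bar at the median of the list. Filled points number 2 of 7 members and 14 of 62 pathway genes, and no gene shown had every caffeine-treated heart above. Over all tested genes, 7.12% were lower and 7.11% higher in every caffeine-treated heart.

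Of the 8 other methyl-CpG readers, all passed the filter, 6 had negative log2 fold changes and the median was −0.14. Mbd1, which binds methylated DNA through the same kind of domain as Mbd2, was at 72.6, 69.9 and 43.7 CPM in vehicle and 44.4, 39.1 and 40.6 CPM in caffeine. Vehicle replicate 3 lay with the caffeine-treated hearts and the other vehicle-treated hearts far above. Its log2 fold change was −0.59 (standard error 0.17, edgeR adjusted p = 0.292), and without vehicle replicate 3 it was −0.79 with an adjusted p of 0.0251, past both thresholds. With no count filter it was −0.61 with an adjusted p of 5.09e-05. That setting called 240 of all genes, against 14 in the main fit. In the other 14 refits Mbd1 was not called. Its log2 fold change was −0.46 without vehicle replicate 1, and its edgeR adjusted p was 0.612 without vehicle replicate 2. Mbd5 had a log2 fold change of −0.25 (adjusted p = 0.717), and its hearts overlapped. Without caffeine replicate 1 it was −0.12, and without caffeine replicate 2 it was −0.39.

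The 12 NuRD subunits all passed the filter, 9 with negative log2 fold changes and a median of −0.05. Of these, 4 (Mta1, Mta3, Gatad2b and Hdac2) were lower in every caffeine-treated heart, beside 7.12% of all tested genes. Mta1, a scaffold subunit, was at 67.97, 62.8 and 61.6 CPM in vehicle and 46.4, 51.8 and 55.1 CPM in caffeine (log2 fold change −0.33, standard error 0.10, edgeR adjusted p = 0.314). Mta3, a related scaffold, had −0.27 (adjusted p = 0.581) and Gatad2b, which links the MBD protein to the remodeller, −0.24 (adjusted p = 0.679). Gatad2b was at −0.14 without vehicle replicate 2. Chd4, the main remodelling ATPase of the complex, had −0.03 (adjusted p = 0.96).

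Of 21 TET cofactors and base excision genes 19 passed the filter, and their median log2 fold change was −0.02. Each caffeine-treated heart lay below each vehicle-treated heart for 6 of these 19, beside 7.12% of all tested genes. Cxxc4, whose product binds unmethylated CpG and TET2, had 24, 34 and 22 counts in vehicle and 15, 10 and 8 in caffeine. On the CPM scale these were 2.34, 3.21 and 2.22 against 2.10, 1.13 and 0.936, and the log2 fold change was −0.93 (standard error 0.36, edgeR adjusted p = 0.456). Apex1, the abasic site endonuclease, had −0.46 (adjusted p = 0.659), but 74.5% of its coding bases are shared with annotated transcripts of Pip4p1, so its counts are uncertain. Cxxc5, a relative of Cxxc4, had −0.20 (adjusted p = 0.619).

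The other writers and their cofactors had 10 of 15 genes past the filter, 5 with negative and 5 with positive log2 fold changes, and none with clear groups. Nsd1, a histone H3 lysine 36 methyltransferase, was at 72.2, 90.96 and 85.95 CPM in vehicle and 64.98, 73.8 and 67.1 CPM in caffeine (log2 fold change −0.27, standard error 0.11, edgeR adjusted p = 0.466). Trim28, the corepressor of KRAB zinc finger proteins, had −0.20 (adjusted p = 0.669). Without caffeine replicate 1 it was −0.09. Pcna, the replication clamp that UHRF1 and DNMT1 work beside, had 0.20 (adjusted p = 0.828), with reads that may be shared with Pcna-ps2, a copy of 99.4% of its coding bases. Pcna was at 0.03 without caffeine replicate 3 and at 0.12 with library size only.

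In the methyl donor cycle, which supplies S-adenosylmethionine, 13 of 17 genes passed the filter, 7 with negative log2 fold changes and a median of −0.05. Of the 13, 3 were lower in every caffeine-treated heart, beside 7.12% of all tested genes. Amd1, which draws S-adenosylmethionine into polyamine synthesis, was at 48.7, 52.3 and 48.5 CPM in vehicle and 39.7, 40.8 and 35.9 CPM in caffeine. These groups were clear of each other (log2 fold change −0.36, standard error 0.10, edgeR adjusted p = 0.257), although copies match all coding bases of Amd1. Mtr, methionine synthase, was at 90.6, 103.5 and 90.3 CPM in vehicle and 70.8, 89.2 and 71.3 CPM in caffeine (log2 fold change −0.30, standard error 0.11, edgeR adjusted p = 0.439). Its groups were also clear of each other, but caffeine replicate 2 lay just below vehicle replicates 1 and 3. Shmt1, the cytosolic serine hydroxymethyltransferase, had 0.36 (adjusted p = 0.702), with overlapping hearts, and 0.21 without caffeine replicate 2.

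Log2 fold changes moved with exon length over all tested genes. Among 2263 tested genes with under 2 kb of exon the median log2 fold change was 0.05, with 39.8% negative, and among 725 genes over 12 kb it was −0.08, with 68.7% negative. Genes lower in every caffeine-treated heart made up 3.98% of the shortest class and 13.4% of the longest, and genes higher in every caffeine-treated heart 9.72% and 3.72%. Dnmt3a, Tet1, Tet2 and Tet3 are all in the longest class, with 15457 to 16870 exon bases. Set beside the class median of −0.08, Tet2 (−0.05) was above it and Dnmt3a (−0.17), Tet3 (−0.31) and Tet1 (−0.61) were below it. Mbd2, with 3214 exon bases, is in the class of 2 to 4 kb, whose median was 0.03. The part of length in these differences was not tested.

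**Figure D5:**
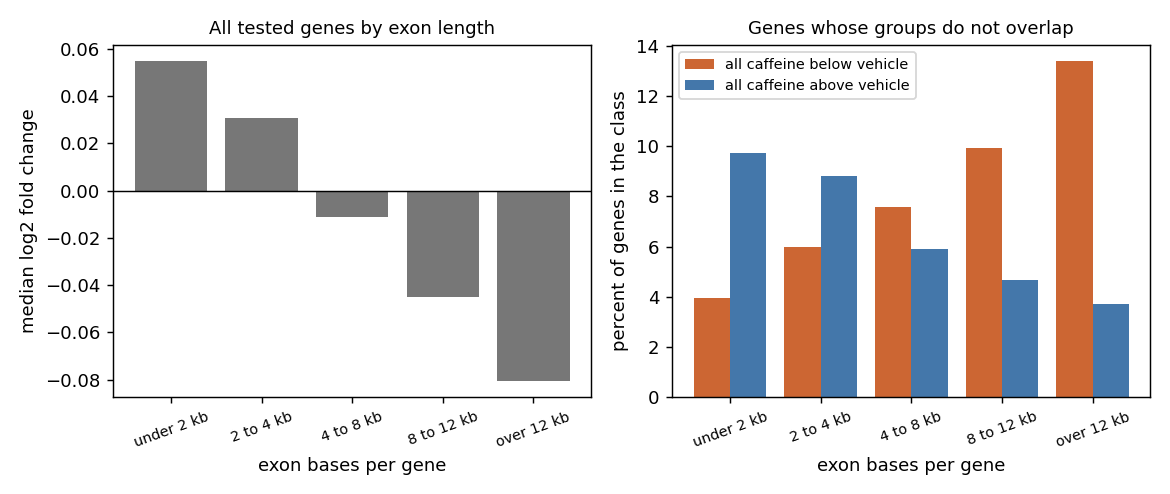
All tested genes by class of exon length (horizontal axis), with the median log2 fold change at left and at right the percentage whose caffeine-treated hearts all lay below (orange) or above (blue) the vehicle-treated hearts. The median steps down from 0.05 under 2 kb to −0.08 over 12 kb, and the share of genes lower in every caffeine-treated heart climbs from 3.98% to 13.4%.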

How the data were processed

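Poly(A) RNA of 6 left ventricles was sequenced by the authors in a single run of 75-cycle single-end reads. Per the study's methods, reads were cleaned with FastQC, mapped to mm10 with Tophat2 and counted with HTSeq on Ensembl release 79, and the authors deposited the raw counts per gene, without normalization. Tool versions and the strand setting of the counting are not given in the sources used here. HTSeq by default leaves out reads that fit several places, which can lower genes with near-identical copies, and whether that default was used is not stated.

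Groups and replicate numbers came from the sample titles. Counts were filtered with filterByExpr (minimum count 10, minimum total 15), scaled by TMM and fitted with treatment as the only term in edgeR 4.0.16 (R 4.3.3, glmQLFit and glmQLFTest). The thresholds are those the study's methods state, with edgeR named there but no test or filter. At these thresholds the study reported more genes higher and more genes lower in caffeine than the main fit here called. The standard error is the absolute log2 fold change divided by the square root of F, and 95% intervals use the t distribution on the fit's degrees of freedom. Permutation tests compared mean log2 CPM (prior count 2) over all 20 labelings. The common biological coefficient of variation was 12.1%. The fit was tested on simulated counts with known changes. Replicates of a group differed by more than sampling noise (chi-square per degree of freedom 5.71 to 15.1), so each was kept as a sample.

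Names, positions and exon lengths came from GENCODE mouse release M21 (GRCm38), in which 42462 of 43629 identifiers have a symbol. Copies were found with BLAST+ 2.17.0+ (identity of at least 95% over at least 75 bases of coding sequence, annotated transcripts only). CpG windows came from RefSeq (GRCm38.p6), and none was used for Mbd2. DESeq2 1.42.0 and limma 3.58.1 served as alternatives.

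All 9 genes are named, and of each pathway list the 3 with the largest log2 fold change in size. One gene that this rule names is not reported here. Hdac2 and Chd4 were chosen after their values were seen. The genes and lists were chosen with earlier results of these data known. Low counts of Dnmt3b, Tdg, Uhrf1 and Tet1 limit their precision, and intervals from pooled counts cover counting error only.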

Additional observations from a re-analysis of the deposited data

How the results depend on the processing

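No methylation gene was called under any of 17 alternatives. At an unadjusted p below 0.05, Mbd2 and Tet3 passed with library size only, lower in caffeine, as were 9.15% of all tested genes. Tet3 passed with no filter, also lower, beside 4.4% of all tested genes. Dnmt3a, Mbd2 and Tet3 passed without vehicle replicate 1, all lower, beside 4.77%. Without vehicle replicate 2 no methylation gene passed, and edgeR's quasi-likelihood p was 0.16 for Mbd2 and 0.289 for Tet3. Dnmt3a, Mbd2, Tet1 and Tet3 kept a negative and Uhrf1 a positive log2 fold change in all 16 refits. Dnmt1 turned to 0.037 without vehicle replicate 2, 0.033 without caffeine replicate 1 and 0.025 without caffeine replicate 3, and Tet2 to 0.019 without caffeine replicate 3. Leaving out each replicate gave −0.18 to 0.037 for Dnmt1 and −0.12 to 0.019 for Tet2. The cause was not tested.

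Of all genes, 14 were called (11 higher, 3 lower), against 94 with edgeR's exact test, 101 with the likelihood ratio test, 67 with DESeq2, 240 with no filter, 27 with library size only (12 higher, 15 lower, with a median log2 fold change of all genes of −0.08) and 4 to 28 with each replicate left out (27 without vehicle replicate 1, 4 without vehicle replicate 2, 28 without vehicle replicate 3, 8 without caffeine replicate 1, 22 without caffeine replicate 2 and 4 without caffeine replicate 3). Pathway calls were 0, and 1 (Mbd1) with no filter, with 0 to 1 when a replicate was left out. Pathway genes lower at an unadjusted p below 0.05 numbered 7 (beside 4.4% of all tested genes), 14 with library size only (9.15%), 3 without vehicle replicate 2 (3.2%) and 10 without vehicle replicate 1 (4.77%, where 1 pathway gene was higher). Hearts not overlapping numbered 14 lower and 0 higher, and 18 and 0 with library size only, where 14% of all genes were lower and 3.06% higher.

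With the replicate number as a block, 40 genes, 0 methylation genes and 0 pathway genes were called. Deviations of same-numbered hearts from their group means correlated at 0.05, −0.03 and −0.04 across genes, and the replicate numbers were taken as names only.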
